A study of Arabidopsis thaliana with 8 samples.

Results

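High definition (HD) adapters were set against standard Illumina adapters in wild-type (wt) leaf of Arabidopsis thaliana, to ask which transcripts each kind of adapter recovers better. The comparison holds 4 of the 8 libraries of the series, wt with HD adapters (2 libraries) and wt with standard adapters, labelled IL (2 libraries). Of 22546 loci listed in at least 1 library, 19521 had enough counts to be tested, and all of them entered the comparison. Per the series text, each RNA sample was made into both kinds of library. Libraries with the same replicate number were therefore treated as a pair from the same RNA. Each pair holds a single library of each adapter, so the adapter cannot be told apart from other differences between library preparations. The words adapter effect mean the difference between HD and standard libraries, whatever its source. The other 4 libraries are labelled dcl1, with the same adapters and numbers, and the allele is not stated. They were used to see whether the wt effect was repeated. They were also fitted together with the wt libraries, so the filter, the scaling and the spread behind the wt p-values rest on all 8 libraries. All plants grew untreated in chambers at 25 °C by day and 18 °C by night with 16 h of light, and messenger RNA was picked from total leaf RNA on magnetic beads. The labels do not say whether the replicates were separate plants, so the spread between libraries may be technical. The p-values rest on a spread estimated partly over all loci. A small p-value therefore does not mean that the 2 pairs of a locus were close.

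To sequence RNA, short synthetic adapters are joined to the ends of RNA or cDNA fragments by ligases, and a ligase joins some end sequences and folds more readily than others. A standard adapter offers every fragment the same end. HD adapters carry a stretch of random bases at the end to be joined, so that the pool offers many different ends. Dicer-like 1, the enzyme that dcl1 mutants lack in whole or in part, cuts microRNAs from their folded precursors. In leaf messenger RNA libraries the abundant transcripts are those of photosynthesis, while ribosomal RNA (rRNA), transfer RNA (tRNA), spliceosomal small nuclear RNA (snRNA) and small nucleolar RNA (snoRNA) have no long poly(A) tail and are mostly left behind by the beads.

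The wt HD libraries held 21537881 and 40516219 counts, and the wt standard libraries held 21733499 and 40382700. The libraries labelled dcl1 held between 15772958 and 45929383. Levels are given as CPM, the counts scaled to library size, after TMM scaling, by replicate number within each adapter. The leaf label was borne out by markers, since 6 mesophyll genes had between 1070 and 19880 CPM in the 4 wt libraries, while 3 seed and 2 flower genes stayed at or below 0.211 CPM, with OLE1 and AP1 at 0 in every wt library. DCL1 had 22.2 and 25.7 CPM in HD and 24.1 and 21.2 CPM in standard libraries labelled dcl1, against 20.3 and 21.2 CPM in HD and 21.3 and 20.2 CPM in standard wt libraries, so its level did not tell the genotypes apart. The libraries within a pair share their RNA, but between the genotypes fewer cells of a type and less RNA per cell cannot be told apart.

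Most loci had about the same level with both adapters. With the RNA sample as a block in edgeR's quasi-likelihood test and Benjamini-Hochberg adjustment, 117 loci were higher with HD adapters (0.599% of the 19521 tested) and 68 were lower (0.348%), at an adjusted p under 0.05. The median log2 fold change, HD over standard, was 1.18 among the higher loci, -0.53 among the lower loci and -0.01 over all tested loci. A change of at least 1 on the log2 scale was found at 65 of the higher loci and at 8 of the lower ones. Without the block, 45 loci were called higher and 4 lower, and all 49 were among the calls of the paired fit. The lower calls therefore rest largely on the pairing. With the block, leaving out 1 library also takes its partner out of the adapter comparison, so the wt effect then rests on 1 pair. Leaving out any single wt library left between 37 and 59 higher and between 4 and 34 lower calls.

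Many of the 117 higher loci, though not all, fell into a few kinds of sequence, sorted here after their values had been seen. Structured or ribosomal RNA loci made up 23 of the 117, and 10 more overlapped such a locus by position. A further 38 held a GA or GAA repeat run of at least 30 bases. Of the remaining loci, 1 consisted largely of mitochondrial sequence and 45 had none of these features, of which 9 differed by at least 1 on the log2 scale. The sequences of a few leading loci are shown first, since what these loci share is their sequence; they were read on the gene's strand from the RefSeq assembly TAIR10.1.

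The structured RNAs stand for the kinds of small RNA that were higher with HD adapters. Capitals mark the anticodon of the tRNA for aspartate, the start of U1 that pairs with the 5′ splice site, the U2 bases that recognise the branch point, and the C and D boxes that hold the ends of a C/D snoRNA.
tRNA-Asp AT3G51265, chr3:19033393-19033464, minus strand: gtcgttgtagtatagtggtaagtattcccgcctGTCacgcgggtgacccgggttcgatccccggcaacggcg
U1.5, chr1:2538074-2538238, minus strand: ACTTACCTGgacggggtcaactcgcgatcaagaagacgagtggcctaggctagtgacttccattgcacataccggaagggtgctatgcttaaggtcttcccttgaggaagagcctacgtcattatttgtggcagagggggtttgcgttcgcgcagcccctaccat
U2.5, chr5:2975014-2975208, plus strand: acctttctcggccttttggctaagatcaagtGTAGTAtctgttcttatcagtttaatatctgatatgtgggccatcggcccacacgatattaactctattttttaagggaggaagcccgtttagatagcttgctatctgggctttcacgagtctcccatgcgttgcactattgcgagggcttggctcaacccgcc
SNOR30, chr5:20795936-20796051, plus strand: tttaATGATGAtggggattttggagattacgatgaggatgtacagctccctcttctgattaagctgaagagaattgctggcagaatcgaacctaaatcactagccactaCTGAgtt
snoRNA AT2G35744, chr2:15029712-15029790, minus strand: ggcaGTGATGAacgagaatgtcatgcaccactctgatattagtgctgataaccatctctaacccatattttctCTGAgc

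The repeat runs stand for a group of mostly protein-coding loci whose shared feature is a perfect run of purines on 1 strand and pyrimidines on the other. The run is in capitals, with 15 bases on each side. The run of AT5G03710 lies in a coding exon, that of AT1G47300 crosses the border of a coding exon and an intron, and those of ARF23 and AT2G19360 lie in introns.
AT5G03710, chr5:971381-971596, plus strand: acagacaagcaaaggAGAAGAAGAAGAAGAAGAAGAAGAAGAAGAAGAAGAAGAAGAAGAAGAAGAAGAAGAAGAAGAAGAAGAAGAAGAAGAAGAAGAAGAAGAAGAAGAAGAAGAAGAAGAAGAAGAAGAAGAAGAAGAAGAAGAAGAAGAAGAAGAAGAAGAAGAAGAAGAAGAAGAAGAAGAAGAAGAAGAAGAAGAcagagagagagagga
AT1G47300, chr1:17339658-17339774, minus strand: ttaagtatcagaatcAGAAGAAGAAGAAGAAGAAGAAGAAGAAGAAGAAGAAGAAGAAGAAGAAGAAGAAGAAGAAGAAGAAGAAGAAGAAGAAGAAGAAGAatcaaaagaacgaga
ARF23, chr1:16673549-16673716, minus strand: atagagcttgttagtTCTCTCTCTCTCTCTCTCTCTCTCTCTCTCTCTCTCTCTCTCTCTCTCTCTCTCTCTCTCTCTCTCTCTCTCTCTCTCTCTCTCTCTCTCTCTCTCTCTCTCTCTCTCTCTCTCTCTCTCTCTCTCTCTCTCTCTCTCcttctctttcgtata
AT2G19360, chr2:8381897-8382098, plus strand: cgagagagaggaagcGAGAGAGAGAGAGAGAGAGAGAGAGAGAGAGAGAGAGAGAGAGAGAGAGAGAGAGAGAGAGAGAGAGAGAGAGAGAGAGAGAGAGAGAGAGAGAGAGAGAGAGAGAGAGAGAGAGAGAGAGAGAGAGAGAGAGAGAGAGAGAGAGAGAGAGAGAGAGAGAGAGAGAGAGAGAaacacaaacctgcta

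Ribosomal RNA loci were higher with HD adapters in wt. The 4 rRNA loci, which had 3 distinct sets of counts, took 26.2% and 26.9% of all counts in the HD libraries, against 17.3% and 19.5% in the standard libraries. The 2 loci for 18S are near-identical, as are the other 2, with equal or nearly equal counts, so these shares appear to count most rRNA reads repeatedly. With each copy counted once, rRNA took 15.1% and 15.6% in HD libraries, against 9.46% and 10.8% in standard libraries. All 4 were called higher, with a median log2 fold change of 0.75. The 18S rRNA locus AT2G01010 (chr2:3706-5513, plus strand), which encodes the RNA of the small ribosomal subunit, had 126291 and 124333 CPM with HD adapters, against 76872 and 85427 CPM with standard adapters. Its log2 fold change was 0.63 ± 0.02 (SE), with an adjusted p of 1.18e-114 in edgeR's test. The 5.8S locus AT3G41979 (chr3:14199753-14199916), whose RNA belongs to the large subunit, had 14807 and 11772 CPM with HD adapters, against 7908 and 6499 CPM with standard adapters, a log2 fold change of 0.88 ± 0.05 (edgeR adjusted p = 2.24e-64). At both loci the HD libraries were above the standard libraries with no overlap. How much rRNA each preparation carried past the beads cannot be told apart from the adapter. The locus AT2G01020 had the same counts as AT3G41979 in every library, so these are not separate observations.

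The rRNA result did not extend to the libraries labelled dcl1. There the median log2 fold change of the 4 loci was -0.23, all 4 were called lower, where 0.517% of tested loci were, and the difference between the genotypes passed the test at all 4. Over all loci that difference was called at 36 loci (0.184% of those tested). For 18S the wt effect exceeded that in dcl1 by 0.73 on the log2 scale, and for 5.8S by 1.23. The 5.8S locus had 4724 and 6224 CPM in HD libraries labelled dcl1, against 5658 and 8428 CPM in standard libraries labelled dcl1, so each HD library was below the standard library of its pair.

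AT2G01021, annotated as protein-coding and numbered next to the rRNA locus AT2G01020, was among the 5 most abundant called higher. Whether its reads came from rRNA was not tested. It had 6447 and 4291 CPM in HD libraries, against 4070 and 4320 CPM in standard libraries. Its log2 fold change was 0.33, and the HD and standard libraries overlapped. Without the first HD or the first standard wt library, the sign of this change turned, to -0.03 and -0.01. AT3G43990, annotated as a BAH domain protein (chr3:15782538-15785184, minus strand), showed a larger and steadier difference. It had 1506 and 1323 CPM with HD adapters, against 355 and 355 CPM with standard adapters, a log2 fold change of 1.99 ± 0.09 (edgeR adjusted p = 1.2e-90). In the libraries labelled dcl1 it had 375 and 573 CPM with HD adapters, against 413 and 523 CPM with standard adapters. The difference between the genotypes was 1.99 (edgeR adjusted p = 1.13e-50). The difference between HD and standard libraries at this locus was thus seen in wt and not in the dcl1 libraries.

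Spliceosomal snRNAs, which recognise splice sites and the branch point and carry out splicing, were higher with HD adapters. All 13 tested loci lay higher in both HD libraries than in both standard libraries, where 18.2% of all tested loci did. Of the 13, 8 passed the test and none was called lower. Their summed level was 2504 and 2148 CPM with HD adapters, against 664 and 831 CPM with standard adapters. The 6 U2 loci make up most of that sum, and as near-identical copies their counts cannot be taken as separate observations. U2.5 had 375 and 322 CPM in HD libraries, against 96.2 and 127 CPM in standard libraries, a log2 fold change of 1.65 ± 0.12 (edgeR adjusted p = 3.69e-35). U1.5 had 103 and 90.6 CPM in HD libraries, against 30.5 and 29.8 CPM in standard libraries, a log2 fold change of 1.68 ± 0.18 (adjusted p = 2.69e-17). U4.2, the RNA that holds U6 inactive until the spliceosome is activated, had 78.9 and 77.7 CPM with HD adapters, against 40.1 and 40.7 CPM with standard adapters. That change, 0.95 ± 0.16 on the log2 scale, was the smallest of the class and still passed (adjusted p = 1.9e-06). The U6 loci, the RNA at the catalytic centre, had log2 fold changes between 2.20 and 2.998 at low levels, and none of the 3 passed.

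For U2 the effect in wt was larger than in dcl1, where the median log2 fold change of the 6 loci was 0.58. The difference was called at all 6, at 1.08 for U2.5. The 6 loci were called higher with HD adapters in dcl1 too, but the dcl1 pairs went apart: U2.5 had 71.8 and 193 CPM in HD libraries labelled dcl1, against 84.3 and 74.3 CPM in standard libraries labelled dcl1. The first pair thus lay slightly lower with HD adapters and the second higher.

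Small nucleolar RNAs guide methylation and pseudouridylation of rRNA, and U3 takes part in the first cuts of the rRNA precursor. Of 66 loci listed, 35 were tested, and 4 were called higher with HD adapters, where 0.599% of all tested loci were, and none lower. The HD libraries lay wholly above the standard libraries at 20 of the 35, against 18.2% of all loci, and wholly below at 2. Without the first wt HD or the first wt standard library none of the 4 passed, and without the block 1 did. U3B had 31.0 and 30.02 CPM in HD libraries, against 9.57 and 16.8 CPM in standard libraries, a log2 fold change of 1.25 ± 0.27 (edgeR adjusted p = 8.29e-04). AT2G35744 had 30.6 and 5.84 CPM with HD adapters, against 2.48 and 2.13 CPM with standard adapters (log2 fold change 2.53 ± 0.51, adjusted p = 2.56e-04). SNOR30 had 14.0 and 4.94 CPM with HD adapters, against 1.45 and 2.29 CPM with standard adapters (2.16 ± 0.58, adjusted p = 0.027), and 2.65 was its log2 fold change in dcl1. At both of these the first HD library was far above the second. Of the 35 tested snoRNA loci, 23 (65.7%) held both a C box, searched for as ATGATGA or GTGATGA on the gene's strand, and a D box, CTGA, within 20 bases of their ends, and 0 of 133 tRNA and snRNA loci did.

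Transfer RNA loci leaned towards HD adapters in wt, at low levels, and few passed the test. Their summed level was 221 and 276 CPM in HD libraries, against 82.6 and 99.3 CPM in standard libraries. Of 346 loci listed, 120 were tested, and 117 of these had a positive log2 fold change, with a median of 1.69. The 117 include 2 loci for serine that had 0 CPM in every wt library and a fitted value of practically 0. Because tRNA genes occur in identical copies whose reads match several loci, these 120 loci had only 32 distinct sets of counts. In all, 7 of the 120 loci passed the test, where 0.599% of all loci were called higher, all for aspartate and with 2 distinct sets of counts, and none was called lower. AT3G51265, one of them, had 44 and 279 counts in HD libraries, against 0 and 19 counts in standard libraries. That is 2.20 and 6.96 CPM against 0 and 0.444 CPM, with a fitted log2 fold change of 4.92 ± 1.36 (edgeR adjusted p = 0.037). None of the 7 passed when the block was left out, or when any single wt library was left out. The tRNAs for glutamate (24 loci, median 2.38), glycine (21 loci, median 3.88) and proline (61 loci with 8 distinct sets of counts, median 1.27) leaned the same way without a call. In the libraries labelled dcl1 the median of the 120 loci was -0.94, so the lean of the whole class was not repeated there. The 8 loci for aspartate went otherwise, with a median of 4.92 in wt and 4.05 in dcl1. Of these 8, 1 was called higher in dcl1 and 1 lower, where 0.891% and 0.517% of all tested loci were.

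**Figure D1:**
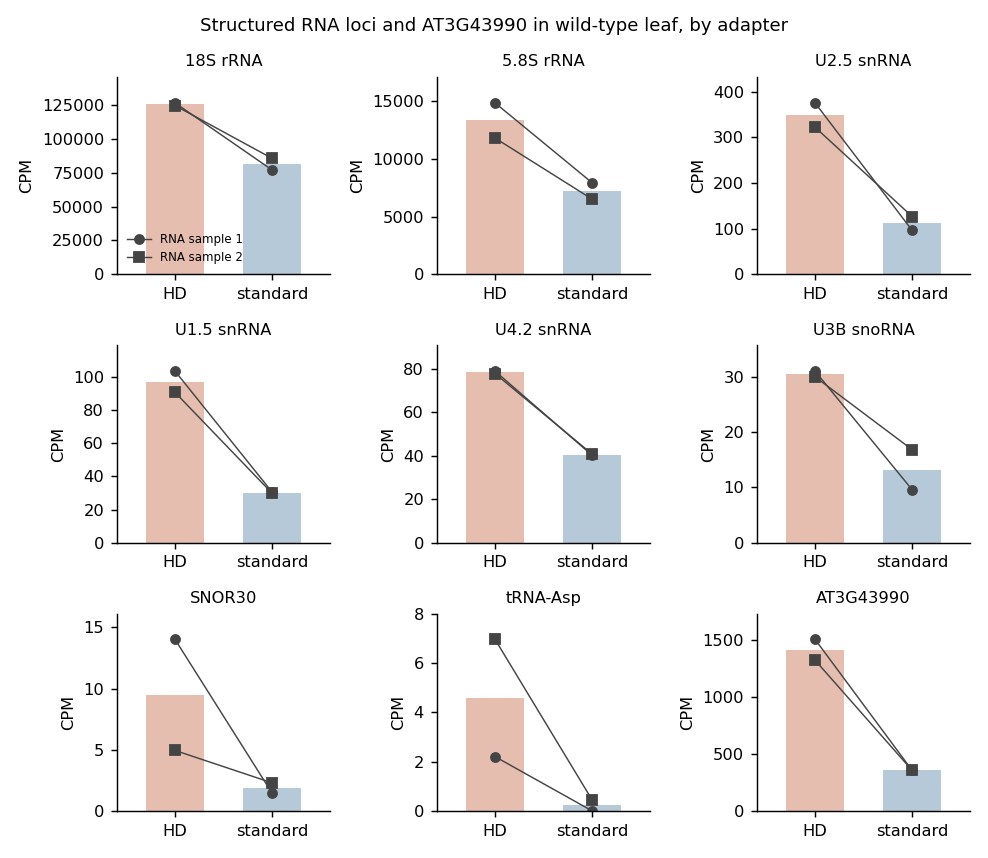
Normalised read counts (CPM) of 8 structured RNA loci and of AT3G43990 in the 4 wt libraries, with HD adapters at left and standard adapters at right. Bars are means of 2 libraries, points are libraries, and lines join libraries from the same RNA sample; U2.5 had 375 and 322 CPM with HD adapters, against 96.2 and 127 CPM with standard adapters.

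Among the higher loci, 10 were mostly protein-coding or uncharacterised genes that overlap a structured RNA by position, so that reads in the overlap cannot be told apart. AT3G57770, a protein kinase gene across U2.3, had 343 and 294 CPM in HD libraries, against 85.5 and 116 CPM in standard libraries. AT4G23420, which overlaps U1.5, had 99.5 and 91.2 CPM in HD libraries, against 29.7 and 30.8 CPM in standard libraries. These changes, 1.67 and 1.65 on the log2 scale, are close to those of the snRNAs themselves. AT3G06895, on the strand opposite U4.2, had 25.8 and 21.0 CPM with HD adapters, against 1.90 and 3.04 CPM with standard adapters, a log2 fold change of 3.25 ± 0.40 (edgeR adjusted p = 4.54e-13). AT5G53905 and U3B lie on opposite strands and had identical counts, 620 and 1203 in HD libraries against 212 and 719 in standard libraries. Whether the counting used strand is not given in the sources used here, so such partners cannot be told apart.

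Large changes were also found at a few little-studied loci. AT1G16635, a non-coding RNA that overlaps a structured RNA locus, had 32.9 and 6.44 CPM in HD libraries, against 1.76 and 2.43 CPM in standard libraries (log2 fold change 2.77). AT2G31141, a protein-coding locus, had 20.8 and 17.3 CPM in HD libraries, against 2.71 and 4.84 CPM in standard libraries (2.37). AT1G15405, a non-coding RNA, had 89.5 and 58.2 CPM in HD libraries, against 15.1 and 13.2 CPM in standard libraries (2.35), but its log2 fold change in dcl1 was -0.45. At each of the 3 the HD libraries lay above the standard ones. AT2G07706, on chromosome 2 but made of mitochondrial sequence and overlapping a structured RNA locus, had 444 and 366 CPM with HD adapters, against 68.3 and 81.8 CPM with standard adapters. Its log2 fold change was 2.43 ± 0.12 (edgeR adjusted p = 9.67e-79). AT2G07732, 94.5% of whose 20-base words occur in the mitochondrial genome, had 337 and 527 CPM with HD adapters, against 176 and 397 CPM with standard adapters (0.67). Reads of mitochondrial transcripts cannot be told apart from these nuclear copies.

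Long perfect runs of GA or GAA marked a separate set of loci. Of 38 tested loci whose longest GA or CT run reached 50 bases, 27 (71.1%) were called higher with HD adapters, against 0.599% of all tested loci, none was called lower, and the median log2 fold change was 1.09. Of the 65 loci with such a run of 30 to 49 bases, none was called in either direction and the median was -0.03. For GAA or TTC runs of at least 50 bases, 9 of 15 loci were called higher, with a median of 1.12, and these loci cover 13 genome positions. At 30 to 49 bases 2 of 77 were called, AT3G56570 and RWA3, both with a run of 36 bases. The lengths were counted over the whole gene span, introns included, and the groups were formed after the values had been seen, so the counts are a description with no test.

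The genes that hold these runs encode proteins of unlike kinds. AT2G19360, a DUF239 gene with a run of 172 bases in an intron, had 93.5 and 110 CPM in HD libraries, against 20.1 and 26.4 CPM in standard libraries, a log2 fold change of 2.13 ± 0.15 (edgeR adjusted p = 1.75e-37). ARF23, of the auxin response factor family, with an intronic run of 138 bases, had 68.0 and 79.5 CPM in HD libraries, against 14.2 and 19.1 CPM in standard libraries (2.15 ± 0.17, adjusted p = 1.61e-31). At both loci the HD libraries were higher, and the second of them was above the first. GCN2, the kinase that answers amino acid shortage, had 62.5 and 74.4 CPM with HD adapters, against 19.4 and 23.5 CPM with standard adapters. CIPK23, a kinase that regulates nitrate and potassium uptake, had 80.1 and 38.9 CPM with HD adapters, against 14.9 and 10.7 CPM with standard adapters. SQN, a cyclophilin, had 31.3 and 36.3 CPM with HD adapters, against 7.36 and 11.6 CPM with standard adapters, and MYB23, a regulator of leaf hairs, had 29.3 and 36.3 CPM against 9.12 and 9.41 CPM. These 4 were all called, with log2 fold changes between 1.67 and 2.14.

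At 4 called GAA loci the log2 fold change reached 4.54 to 4.88. AT5G03710, annotated as a replication factor C large subunit with a run of 186 bases, had 195 and 85.2 CPM in HD libraries, against 8.67 and 2.29 CPM in standard libraries (4.83 ± 0.22, edgeR adjusted p = 8.24e-91). AT1G47300, an F-box protein gene with a run of 87 bases, had 60.5 and 26.0 CPM in HD libraries, against 2.44 and 0.725 CPM in standard libraries (4.88 ± 0.34, adjusted p = 7.85e-40). FAF1, of a family that restrains shoot meristem size, had 49.1 and 21.1 CPM with HD adapters, against 2.48 and 0.749 CPM with standard adapters, and AT4G11385 had 31.4 and 13.5 CPM against 1.22 and 0.421 CPM. AT2G34840, a coatomer epsilon subunit gene of vesicle transport with a run of 78 bases, had a smaller change, with 53.5 and 25.1 CPM in HD libraries, against 7.54 and 5.12 CPM in standard libraries (2.56 ± 0.28). At these 5 loci the first library of each adapter was the higher. Among called GAA loci the first HD library stood at a median of 2.13 times the second (1.31 to 2.33), whereas among called GA loci that ratio was 0.853 (0.741 to 1.06). Among called loci the counts of a kind of run thus moved together, and loci that share a repeat can share its reads. HSFA3 (AT5G03720), numbered next to AT5G03710, also has a run of 186 bases, outside its longest annotated transcript. The run reads TCT on its strand and AGA on that of AT5G03710, so it appears to be the same run. HSFA3 was not called. It had 4.61 and 6.14 CPM in HD libraries, against 1.81 and 3.35 CPM in standard libraries. APC2, with a run of 63 bases, had a log2 fold change of -0.51 and was not called.

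The difference in CPM went with the length of the run. Over the 38 GA or CT loci, HD minus standard CPM increased by 0.621 CPM for each base, and the fitted line reached 0 at 43.8 bases; Pearson's r was 0.967 and Spearman's rho 0.912, across loci that share libraries and sequence. On the log2 scale rho was lower, 0.436. Over the 15 GAA or TTC loci the slope was 0.453 CPM for each base and r was 0.586. Of the 53 loci with a run of either kind reaching 50 bases, 50 had a positive log2 fold change. In 27 of the 53 the run lay outside the longest annotated transcript, and 21 of those were called, so there the whole run is not within that annotated mature transcript. In the libraries labelled dcl1, 30 of the 38 GA loci were called higher, where 0.891% of tested loci were, with a median of 1.55. Of the 15 GAA loci 6 were called higher there, with a median of 0.71, and at 2 the genotypes differed. AT1G47300 had 28.7 and 11.8 CPM in HD libraries labelled dcl1, against 0 and 9.88 CPM in standard libraries labelled dcl1, so the second dcl1 pair showed little of the difference.

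Other repeats offered no matching comparison, since long runs were few. TA runs reached 50 bases at 4 loci, none of which was called, with a median log2 fold change of 0.83.

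**Figure D2:**
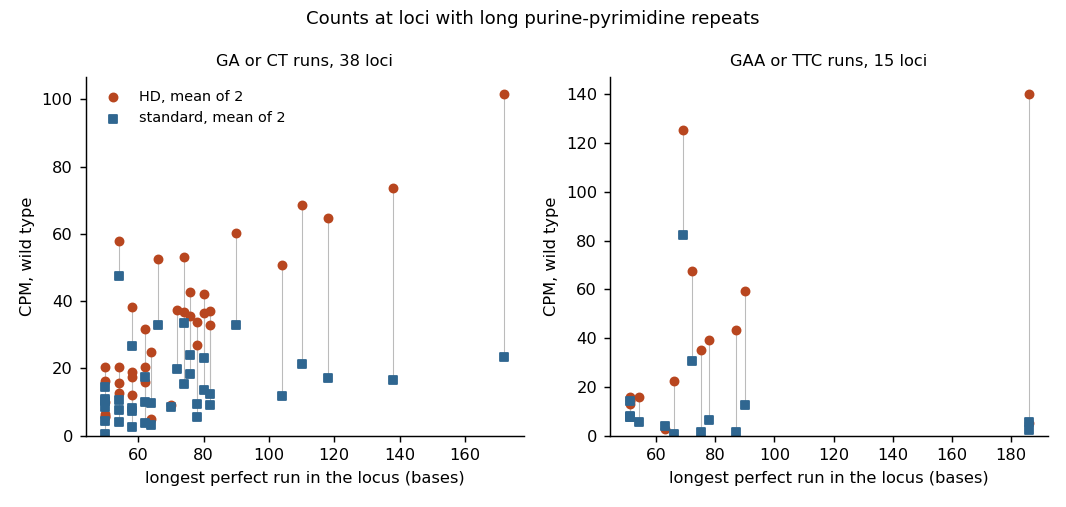
Mean level in wt (CPM) against the longest perfect run in the locus (bases), for GA or CT runs (38 loci, left) and GAA or TTC runs (15 loci, right) of at least 50 bases. Circles are the mean of 2 HD libraries, squares the mean of 2 standard libraries, and lines join the same locus; in the GA panel the gap widens with the run, to 93.5 and 110 CPM against 20.1 and 26.4 CPM at AT2G19360.

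The 45 higher loci with none of these features were mostly protein-coding genes with small changes, at a median log2 fold change of 0.62. They included ATM2, a class VIII myosin, with 55.9 and 41.7 CPM in HD libraries, against 23.7 and 24.3 CPM in standard libraries (log2 fold change 1.01, adjusted p = 2.31e-04 in edgeR). PORA, which reduces protochlorophyllide in light, had 34.0 and 22.5 CPM with HD adapters, against 24.6 and 9.03 CPM with standard adapters (0.89, adjusted p = 2.58e-03). The glycine-rich RNA-binding proteins GRP7 and CCR1, which oscillate with the circadian clock, had log2 fold changes of 0.28 and 0.46. PORA overlapped between adapters, since its second HD library lay below the first standard library. GRP7 had 2667 and 2929 CPM in HD libraries, against 2030.1 and 2593 CPM in standard libraries, and the groups did not overlap. MT1A, a metallothionein that binds copper and zinc, had 48.96 and 61.3 CPM with HD adapters, against 29.2 and 36.2 CPM with standard adapters (0.75). UBQ12, a polyubiquitin gene, was read at 68 and 135 counts in HD libraries, against 0 and 2 counts in standard libraries. Apart from UBQ12, these loci were chosen for naming after their values had been seen.

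Loci that were lower with HD adapters were more abundant and changed less. Their median level was 106 CPM, against 38.1 CPM for the higher loci and 8.54 CPM for all tested loci, and 65 of the 68 were protein-coding. AT1G67865, an uncharacterised protein gene, had 269 and 295 CPM in HD libraries, against 481 and 510 CPM in standard libraries (log2 fold change -0.81 ± 0.10, edgeR adjusted p = 1.91e-14). TOM5, a small subunit of the mitochondrial import receptor, had 6.91 and 10.2 CPM with HD adapters, against 29.2 and 19.2 CPM with standard adapters (-1.48 ± 0.29, adjusted p = 9.02e-05). MLP43, of the major latex protein family, had 19.8 and 24.1 CPM with HD adapters, against 54.5 and 32.9 CPM with standard adapters (-0.94 ± 0.15, adjusted p = 1.48e-07). HD and standard libraries did not overlap at any of the 3. AT3G22142, of the lipid-transfer protein family, had 27.9 and 30.3 CPM in HD libraries, against 62.0 and 64.2 CPM in standard libraries, but its log2 fold change in dcl1 was 0.91. That locus shares 90% of its sequence words with other loci.

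Among called loci of at least 10 CPM without overlap, the rest of the 10 largest decreases were between 0.77 and 1.30 on the log2 scale. AT4G14615, annotated as a sporulation-specific protein, fell by 1.30. NEK6, a kinase that acts on microtubules, fell by 0.87, DAC, needed for the cytochrome b6f complex of thylakoids to accumulate, by 0.85, and AT1G45230 by 0.83. AT1G76360, a protein kinase, fell by 0.81 and AT5G56710, a ribosomal L31e protein, by 0.77. Other lower loci, named after their values were seen, included the dehydrins COR47 and ERD10, which protect cells during cold and drought, with log2 fold changes of -0.48 and -0.44, while the cold-responsive RCI2A was called higher, at 0.53. The endoplasmic reticulum chaperones SHD and CNX1 had -0.58 and -0.53, catalase CAT3, which breaks down hydrogen peroxide, had -0.31, and the blue-light receptor PHOT1 had -0.47. COR47 had 308 and 308 CPM in HD libraries, against 425 and 432 CPM in standard libraries, with no overlap.

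Photosynthesis genes were the coding class with the highest share of calls, in both directions. Of 67 tested genes of light harvesting and the photosystems, 11 (16.4%) were lower with HD adapters and 5 (7.46%) were higher, against 0.348% and 0.599% of all loci; their median level was 889 CPM. Among all 152 loci of at least 500 CPM, 20 were lower and 14 higher. Of the 100 of these outside the photosystems and carbon fixation, 4 were lower and 10 higher. Without the block none of the 67 was called in either direction. When 1 wt library was left out, between 2 and 6 of the 67 were lower and 0 or 1 higher.

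Antenna proteins, which bind chlorophyll and pass light energy to the reaction centres, were called lower at 8 of 26 genes and higher at 1 (0.348% and 0.599% over all loci), and 17 were not called. CAB1, an antenna protein of photosystem II, had 29510 and 25020 CPM in HD libraries, against 34545 and 30581 CPM in standard libraries (log2 fold change -0.26 ± 0.03, edgeR adjusted p = 6.27e-11). LHCA1, an antenna protein of photosystem I, had 5785 and 4873 CPM in HD libraries, against 8032 and 6796 CPM in standard libraries (-0.48 ± 0.05, adjusted p = 1.83e-16). LHCB4.2 had 2594 and 2254 CPM in HD libraries, against 3673 and 2918 CPM in standard libraries (-0.44). In each of the 3 both HD libraries lay below both standard libraries. The antenna genes CAB2, LHB1B1 and LHB1B2 had log2 fold changes between -0.05 and -0.03 and were not called, so antenna genes differed among themselves. AT5G28450 was the antenna gene called higher. In dcl1 13 of the 26 were called lower. CAB2, LHB1B1 and LHB1B2 were among them there, with log2 fold changes between -0.25 and -0.19.

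The photosystem cores were split. In photosystem II, PSBP-1 and PSBQ-2, subunits of the oxygen-evolving complex, PSBX, a small membrane subunit, and AT1G51400 were called higher, and AT3G63540 was called lower. PSBP-1 had 3243 and 2795 CPM in HD libraries, against 2576 and 2200 CPM in standard libraries (log2 fold change 0.34 ± 0.06, edgeR adjusted p = 2.46e-05). PSBX had 2106 and 2053 CPM with HD adapters, against 1690 and 1594 CPM with standard adapters (0.34). In photosystem I, PSAK, which helps to bind its antenna, and PSAD-2, at the ferredoxin docking site, were called lower and none was called higher. PSAK had 2062 and 1823 CPM in HD libraries, against 2776 and 2352 CPM in standard libraries (-0.40), and PSAD-2 had 758 and 737 CPM against 1161 and 941 CPM (-0.48). PSBP-1, PSBX, PSAK and PSAD-2 did not overlap between adapters.

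All calls among carbon fixation genes were decreases. From a list of 21 Calvin cycle genes made after values had been seen, 7 were lower and none was higher, where 0.348% and 0.599% of all loci were, and 9 of the 21 had a positive log2 fold change. The 7 were RBCS1B, RBCS2B and RBCS3B, which encode the small subunit of Rubisco, at -0.48, -0.38 and -0.24, RCA, the activase that keeps Rubisco working, at -0.27, PRK, which makes its substrate, at -0.36, and the aldolases FBA1 and FBA2 at -0.31 and -0.46. RBCS1A had 9690 and 8909 CPM in HD libraries, against 11205 and 9362 CPM in standard libraries (-0.14), and did not pass (edgeR adjusted p = 0.144).

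**Figure D3:**
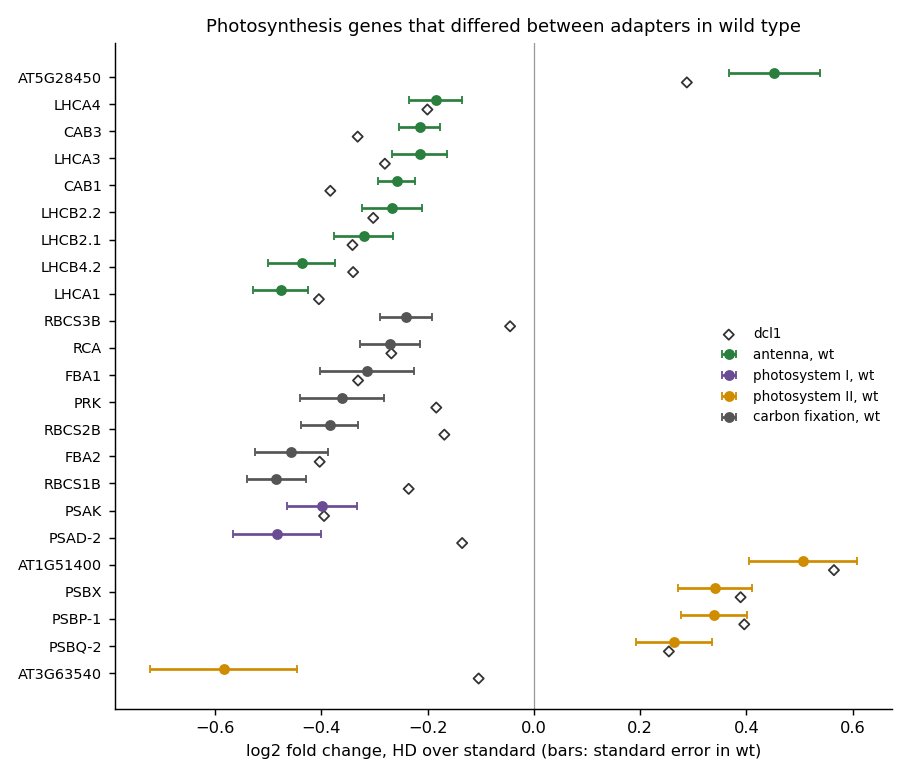
Log2 fold change, HD over standard, of the antenna, photosystem and carbon fixation genes called in wt. Circles are wt with their standard error as bars, and diamonds are dcl1; CAB1 at -0.26 and LHCA1 at -0.48 lie left of 0, PSBP-1 at 0.34 lies right of it.

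Most other coding classes, taken from words in the annotation, held shares of calls near those over all loci or too few loci to tell. Over all loci 0.599% were higher and 0.348% lower. Among 208 glycine-, proline-rich and arabinogalactan proteins, 4 (1.92%) were higher and 1 lower. In dcl1 10 of that class were called higher, where 0.891% of tested loci were, and 0 lower. Of 133 translation factors 2 were higher and 0 lower, and of 91 ubiquitin genes 2 and 0. Of 321 ribosomal protein genes 2 were higher and 2 lower, of 643 protein kinases 4 and 2, of 508 transcription factors 3 and 0, of 183 F-box proteins 2 and 0, and of 422 transporters 1 and 0. No call was made among 285 pentatricopeptide proteins, which process organelle RNA, 141 cytochromes P450, 44 histones, 43 proteasome subunits or 54 peroxidases. The median log2 fold change of these 5 classes lay between -0.18 and 0.10. Of 201 long non-coding RNAs 1 was higher and 2 were lower, with a median of -0.07. The 104 other non-coding RNAs leaned towards HD adapters, with a median of 0.32 in wt and in dcl1. Of these, 4 (3.85%) were called higher in wt and 1 lower. The HD libraries lay wholly above the standard libraries at 43 of them, against 18.2% of all loci, and wholly below at 13. Among the 4 were AT1G16635, which overlaps a structured RNA locus, and AT1G26558, with a GA or CT run of 104 bases. The 1 primary microRNA transcript tested had a log2 fold change of 0.997 and was not called, so microRNA precursors cannot be compared here.

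**Figure D4:**
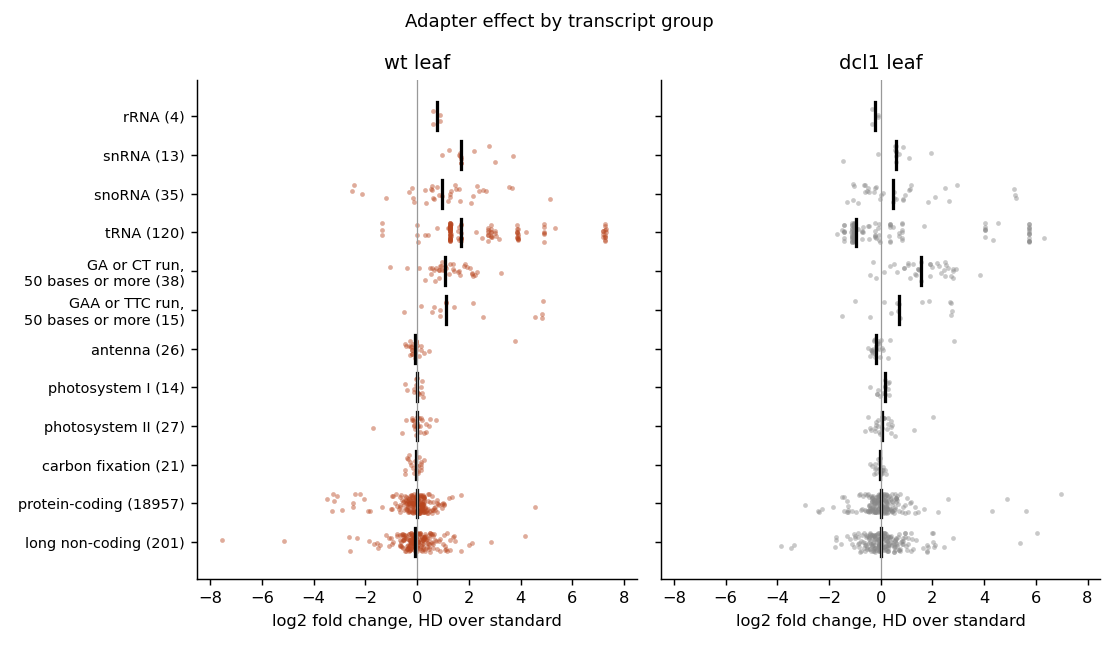
Log2 fold change, HD over standard, of the loci in each transcript group, in wt (left) and dcl1 (right). Points are loci (at most 200 drawn at random for the larger groups), black bars are medians over all tested members, and the number of members stands in parentheses; the medians of rRNA and tRNA lie at 0.75 and 1.69 in wt and at -0.23 and -0.94 in dcl1.

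Base composition went with small shifts across protein-coding loci. Among 8841 protein-coding loci of at least 10 CPM, the median log2 fold change increased from -0.10 in the 1 of 10 equal groups with the lowest T (U) share of the transcript (median 25.9%) to 0.11 in the group with the highest (33.7%). Spearman's rho across loci was 0.217 in the fit, 0.139 and 0.225 in the 2 wt pairs taken alone, and 0.195 in dcl1, and 0.128 over all 18957 tested protein-coding loci in wt. Between replicates of the same adapter it was -0.038 for HD and -0.026 for standard libraries. For GC content rho was -0.080, and -0.025 and -0.123 in the pairs, so that relation was weak and uneven. The G share had a rho of -0.043 in wt and of -0.258 in dcl1. Loci are not independent replicates, and no p is given.

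**Figure D5:**
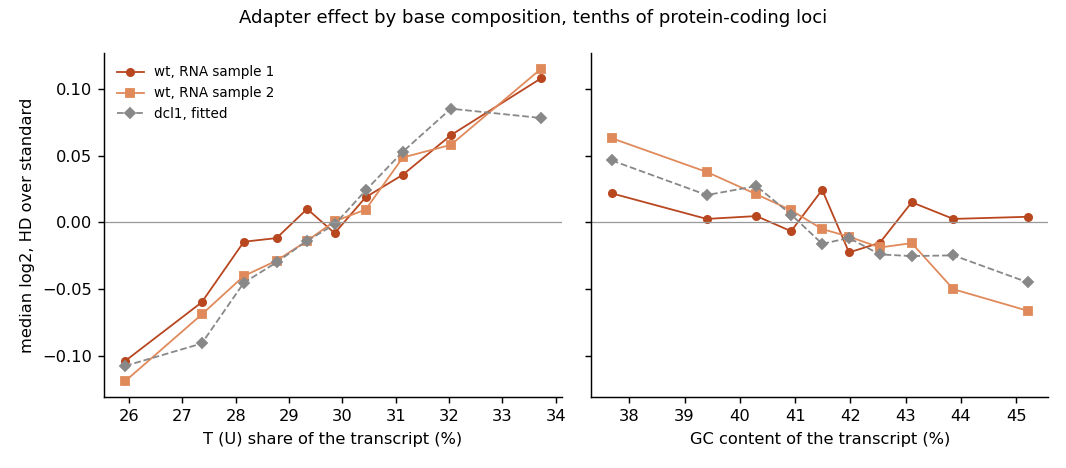
Median log2 fold change, HD over standard, of 10 equal groups of 8841 protein-coding loci by T (U) share (left) and GC content (right) of the longest transcript, in percent. Lines are the 2 wt pairs and the fitted dcl1 effect; all 3 lines climb with T share, from below -0.10 to between 0.08 and 0.12, and differ for GC content.

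The adapters detected similar numbers of loci. After thinning every wt library to 21537881 counts, 17537 and 18407 loci had at least 10 counts with HD adapters, against 18261 and 18308 with standard adapters. The HD pair straddled the standard pair, so the difference was smaller than the spread between HD libraries. The 10 most abundant loci took 37.0% and 36.6% of HD counts, against 29.95% and 31.4% of standard counts. Before thinning, 23 loci had at least 10 counts in both HD libraries and 0 in both standard libraries, of which 15 were tRNA loci (14 for proline) and 8 protein-coding. The tRNA loci for proline are near-identical copies that share reads. In the other direction there were 10 loci, 9 of them protein-coding and none a tRNA. At a minimum of 1 count the balance turned, with 131 loci in HD libraries alone and 174 in standard libraries alone. None of the 23, and none of the 9 of the 10 that were tested, passed. The files list no chloroplast- or mitochondria-encoded locus, so organelle transcripts are not analysed here.

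Of the loci called in wt, 67 of the 117 higher ones (57.3%) were also called higher in dcl1, which is 38.5% of the 174 called there, and 22 of the 68 lower ones (32.4%) were also called lower, 21.8% of the 101. A further 7 loci were called in opposite directions. The effects in wt and dcl1 come from different libraries. Their Spearman correlation across loci was 0.105 over all tested loci and 0.497 over the 964 loci of at least 100 CPM. The difference between genotypes was called at 36 loci, 23 with the larger value in wt and 13 with the larger value in dcl1. That count was 9 without the first HD or the first standard wt library, and 170 and 167 without the first HD and the first standard library labelled dcl1.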

How the data were processed

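The authors deposited, for each library, whole-number read counts per locus identifier, with no header. TAIR10 is the build per the submitters' processing notes; for the aligner, the counter, strand and reads with several matches, nothing is given in the sources used here. Any locus absent from a file was taken as 0 counts, and 22444 of 22546 identifiers were matched to RefSeq TAIR10.1, the source of positions, classes and sequences.

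Counts of all 8 libraries were fitted with edgeR 4.0.16 in R 4.3.3, with filterByExpr, TMM scaling, the RNA sample as a block and an adapter term for each genotype, which leaves 2 residual degrees of freedom. Tests were two-sided quasi-likelihood F tests, adjusted by Benjamini and Hochberg over all tested loci. The SE is the absolute log2 fold change over the square root of F, so it is approximate, above all near 0 counts. It can be smaller than the gap between the pairs of a locus. AT1G16820 had log2 ratios of 2.03 and 1.36 in its wt pairs, with an SE of 0.13. In its dcl1 pairs it had -0.45 and 1.37, also with an SE of 0.13. Counting error limits loci of few counts. The fit was also run on simulated counts as a check of the code, with no result given here.

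The pairing comes from the series text, which says that the same RNA was used for both adapters. The correlation of replicate deviations between HD and standard wt libraries was 0.703 at loci of at least 100 CPM and 0.082 over all loci. In the libraries labelled dcl1, fitted with the same block, it was lower, at 0.376 and 0.005. The rule for named loci took the 10 largest changes in each direction among calls of at least 10 CPM without overlap, the 5 most abundant calls in each direction and up to 3 loci of each class. Members, lists and groups were chosen with earlier results of these data known. Alternatives were no block, wt libraries alone, DESeq2 1.42.0, other scaling, no filter, loci left out and libraries left out. Fits with 1 library left out kept the block, so the adapter effect of that genotype came from its other pair alone. Python 3.11.15 with pandas 2.3.3 and scipy 1.17.1 made the summaries.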

Additional observations from a re-analysis of the deposited data

Results flagged for a closer look

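The adapter effect differed between wt and dcl1 at 26 called loci singled out here or in the report, by the test of the difference itself (edgeR, adjusted over all tested loci). Values are wt minus dcl1 on the log2 scale. Among rRNA loci the difference was 0.73 at AT2G01010 and at AT3G41768, and 1.23 at AT2G01020 and at AT3G41979. AT2G01021, annotated as protein-coding and numbered next to AT2G01020, had 0.72. Among U2 loci it was 1.102 at U2.4, 1.097 at U2.6, 1.09 at U2.3, and 1.08 at U2.2, U2.5 and U2.7. Genes that overlap such loci followed, with 1.16 at AT3G57770 and 1.01 at AT4G23420. The largest difference was 2.80 at AT1G15405, then 2.20 at AT1G47300, 2.06 at AT5G03710 and 1.99 at AT3G43990. It was 1.23 at AT1G16820, 0.72 at AT2G07732 and 0.70 at AT2G07706. It was 0.41 at GRP7. The value was lower in wt than in dcl1 at AT3G22142 (-2.03), AT3G22121 (-1.20), AT3G48820 (-1.19), HMGS (-1.18) and ROPGEF13 (-0.70), and at AT3G22142, AT3G22121 and HMGS the effect was negative in wt and positive in dcl1. What sets the genotypes apart at these loci was not tested.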

How the results depend on the processing

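The main counts were 117 loci higher, 68 lower and 36 with a difference between genotypes. Without the replicate block they were 45, 4 and 5, and the 4 wt libraries alone gave 183 higher and 113 lower with the block and 43 and 2 without it. Library totals in place of TMM shifted the median of all loci to -0.13 on the log2 scale and gave 89 higher, 189 lower (32.0% of calls higher, against 63.2%) and 87 differences. DESeq2 found 89 loci higher, 60 lower and 16 differences. Of the 185 wt adapter calls of the main fit, 29 had no adjusted p in DESeq2. Leaving out loci with shared sequence words gave 15 differences. Leaving out a wt library gave 9 (the first of either adapter) to 33 differences. Leaving out a dcl1 library gave 40 to 170 differences (170 and 167 without the first HD and the first standard library). Leaving out GA or GAA loci, an alternative added after the data were seen, gave 74 higher. A change of at least 1 left 65 higher and 8 lower. Without the first HD, second HD, first standard and second standard wt library, 37, 56, 40 and 59 loci were higher and 6, 33, 4 and 34 lower; leaving out 1 dcl1 library gave 167 to 179 and 119 to 129. By class, rRNA calls fell to 2 without the block. The snRNA calls were 2 with DESeq2 and 2 without shared words. Whether a missing adjusted p accounts for the snRNA, snoRNA and tRNA calls lost with DESeq2 was not tested. The snoRNA calls were 0 to 6 with 1 library left out, 1 without the block, 7 and 0 in wt alone with and without it, and 2 with DESeq2 and without shared words. The tRNA calls were 0 without the block, with DESeq2 and without any single wt library, and 1 without shared words. The rho with T share was 0.139 to 0.225 with 1 wt library left out, where each value rests on 1 pair. AT2G01021, at 0.33 in the main fit, ranged up to 0.66 with 1 library left out and turned to -0.0265 without the first wt HD library and to -0.01 without the first wt standard library. No call of any setting had the opposite sign to a shared call of the main fit. Of 106 named called loci, 20 kept call and direction in every setting run on them, and the cause of the losses was not tested. With 2 libraries a group, loci of few counts could not be resolved.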
